A study of Mus musculus with 19 samples.

Results

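The genes described here encode the MAP kinase cascade and the dual-specificity phosphatases in mouse liver DNA. They were chosen by symbol among the protein-coding genes of RefSeq (GRCm38.p6, whose primary coordinates are those of mm10). Every gene whose symbol starts with Mapk, Map2k, Map3k, Map4k or Dusp was taken, except Mapk15 and Dusp1, which gave 76 of 21896 coding genes. A CpG site belonged to a gene when it lay inside it or within 2 kb of either end. By that rule 20 of the 76 genes (26.3%) held a site in at least 1 of the 3 deposited tables, as did 15.0% of all coding genes. The sites were at 35 positions of the 8525 listed in all. The remaining 56 genes held none.

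The MAP kinase cascade passes a signal from the cell surface or from stress sensors through kinases that phosphorylate one another in order: a MAP4K or a small GTPase acts on a MAP3K, which activates a MAP2K, which activates a MAP kinase. Its ERK branch carries growth factor signals, and its JNK and p38 branches carry stress and inflammatory signals, in hepatocytes as in other cells. The typical dual-specificity phosphatases remove the activating phosphates from the MAP kinase itself, scaffold proteins hold the members of a branch together, and many atypical dual-specificity phosphatases act on other substrates.

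Reduced-representation bisulfite sequencing read CpG methylation in liver from 19 mice aged 10 months: 8 MAT1A WT mice without treatment, 6 MAT1A KO mice on placebo and 5 MAT1A KO mice on SAMe supplementation, the treatments lasting 8 weeks by the series title. Mat1a encodes the liver enzyme that makes S-adenosylmethionine (SAMe), the donor of the methyl group in DNA methylation. Because the WT group was left untreated, genotype and treatment procedure cannot be told apart in either comparison with WT. The strain, the sex, the form of the KO allele and the extraction or sequencing batches are not given in the sources used here.

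Each deposited table listed only the CpG sites that passed the authors' thresholds for 1 pair of groups, with a methylation difference in percentage points, a p-value and a q-value. Every listed difference was over 20 points in size, and the largest q-value listed was 0.0495. No table held a methylation level, a read count or a value for any animal. The depth behind each site is therefore unknown, no spread between animals can be given, and a gene without a listed site may have been uncovered or below the thresholds. Differences are taken here as KO minus WT and as SAMe minus placebo. The differences of the WT comparisons and of the KO groups added up within 1e-08 points at 26 sites that every table lists, so the tables share 1 order of subtraction. Were it the opposite order, all directions below would be reversed.

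All 35 positions lay inside the genes themselves and none in the 2 kb beside them. The RefSeq tables used here give no exons, so exons and introns were not distinguished. A promoter window, from 250 bases before to 50 after a RefSeq start site, was available for 59 of the 76 genes (76 windows), and 0 of these windows held a listed site. Over all coding genes, 44 of 21262 windows (0.207%) held one, so an empty set of 76 is close to that background. A cut site of the assay's enzymes, CCGG for MspI or TCGA for TaqαI (both read the same on either strand), was present in 64 of the 76 windows (84.2%) against 68.6% of all coding gene windows. The listed sites nearest to a RefSeq start site were those of Dusp16, 962 and 989 bp before an internal start site, and those of Mapk8ip3, 1493 and 1535 bp after one. The internal Dusp16 window (mm10, chr6:134792579-134792878, minus strand) is shown because no other window lay closer to a listed site. It held 28 CG pairs, 5 CCGG sites, in capitals, and 0 TCGA sites. The sequence is from RefSeq, 5′ to 3′.
Dusp16 internal promoter: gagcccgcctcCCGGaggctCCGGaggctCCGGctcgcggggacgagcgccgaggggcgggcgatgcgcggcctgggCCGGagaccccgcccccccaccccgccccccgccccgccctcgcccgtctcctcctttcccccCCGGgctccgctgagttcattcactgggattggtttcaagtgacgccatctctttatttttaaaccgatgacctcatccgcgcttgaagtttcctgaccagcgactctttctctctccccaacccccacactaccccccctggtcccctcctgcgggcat

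The first comparison set placebo-treated KO liver against untreated WT liver. All 27 sites listed in the cascade and phosphatase genes were less methylated in the KO group, in 17 of the 76 genes (22.4%). Of all coding genes, 12.5% held a listed site in this comparison. The share in the families lay above that background, but no test of the difference was made, and the families' genes were longer (median 22.4 kb against 17.1 kb). Among genes of 50 kb or longer, a limit set after the data were seen, 12 of 26 members held a site (46.2%), against 22.5% of all such coding genes. The direction was that of the whole table, in which 99.4% of sites were lower.

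The losses were of ordinary size for this table. Their median in the authors' deposited table was −24.8 percentage points, from −40.3 to −20.02, beside −25.9 over all listed sites. Losses of at least 30 points made up 8 of the 27 sites (29.6%) and 30.8% of the whole table. The lowest value was in Map3k20, followed by Map2k6 and Dusp16.

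**Figure D1:**
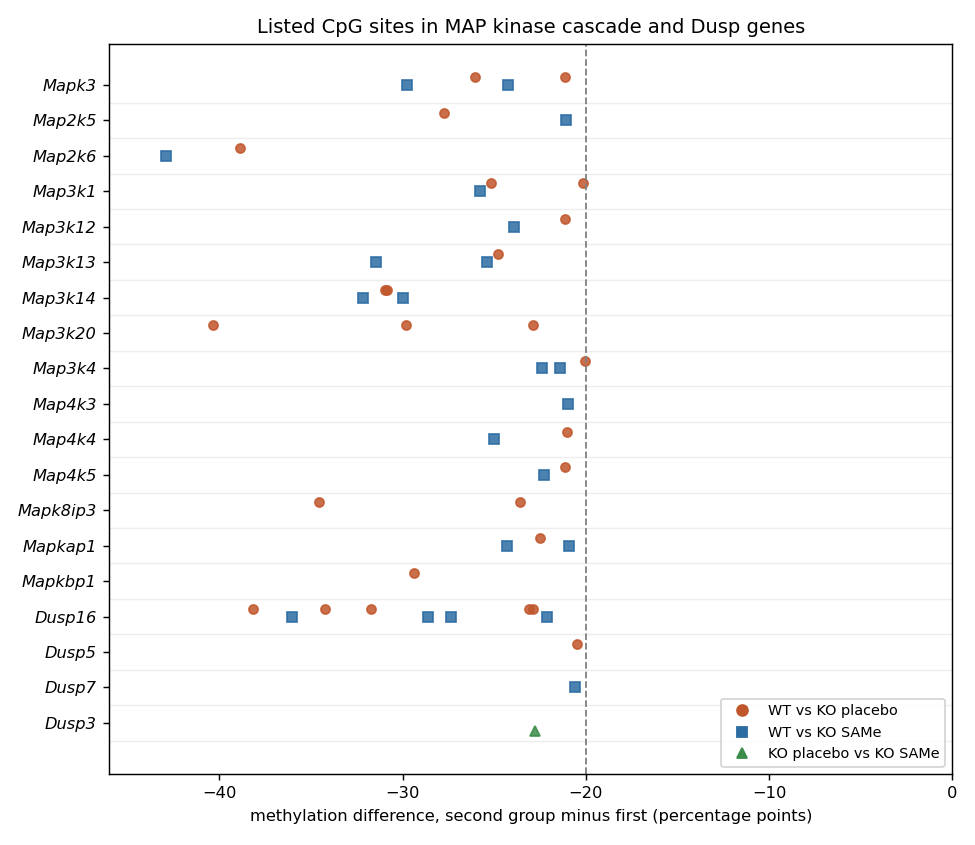
Methylation difference at every listed CpG site (horizontal axis, percentage points, second group minus first) for 19 of the 20 genes with a listed site, ordered by role; circles are WT vs KO placebo, squares WT vs KO SAMe and the triangle KO placebo vs KO SAMe. The dashed line marks a difference of −20 points, above which no lower site was listed; every site lies below it, from −42.9 to −20.02.

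The second comparison set SAMe-treated KO liver against the same WT animals. Methylation was lower at all 23 listed sites, in 15 of the 76 genes (19.7%), where 10.8% of all coding genes held a site and 99.0% of the table's sites were lower. Among genes of 50 kb or longer it was 11 of 26 members (42.3%) against 18.5% of coding genes of that length. The median in the authors' deposited table was −25.0 points, from −42.9 to −20.6, beside −26.6 over the whole table. Losses of at least 30 points were 4 of the 23 (17.4%), compared with 35.2% of all sites in this table, a lower share than in the whole table, with no test made. Both comparisons use the same WT animals. A site missing from 1 table is no measurement of no difference.

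The counts differed between the levels of the cascade, on small numbers of genes. Of the 45 kinase genes 13 held a site in some table (28.9%), and of the 23 phosphatase genes 4 did (17.4%), against the 15.0% of all coding genes. By role, 6 of 18 MAP3K genes, 2 of 7 MAP2K genes, 2 of 5 MAP4K genes and 2 of 12 MAP kinase genes were listed against KO placebo. These were 33.3%, 28.6%, 40.0% and 16.7%, beside 12.5% of all coding genes. In the same order, 5, 2, 3 and 2 genes were listed against KO SAMe, where the share of all coding genes was 10.8%. None of the 3 MAPK-activated kinases, Mapkapk2, Mapkapk3 and Mapkapk5, had a listed site. The 14 atypical phosphatases had 0 against WT in both tables, and the 9 typical MAP kinase phosphatases had 2 in each. Gene length differed between the roles and followed these counts only in part. Its median was 63.1 kb for MAP3K and 89.4 kb for MAP4K genes, but 12.3 kb for typical and 12.9 kb for atypical phosphatases. For MAP2K genes it was 67.8 kb, for MAPK-activated kinases 35.0 kb, for scaffold or binding genes 32.2 kb and for MAP kinases 31.5 kb. The part of gene length in the counts was not tested. Over the families, the 20 genes with a site had a median length of 80.6 kb and the 56 without one 20.1 kb.

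**Figure D2:**
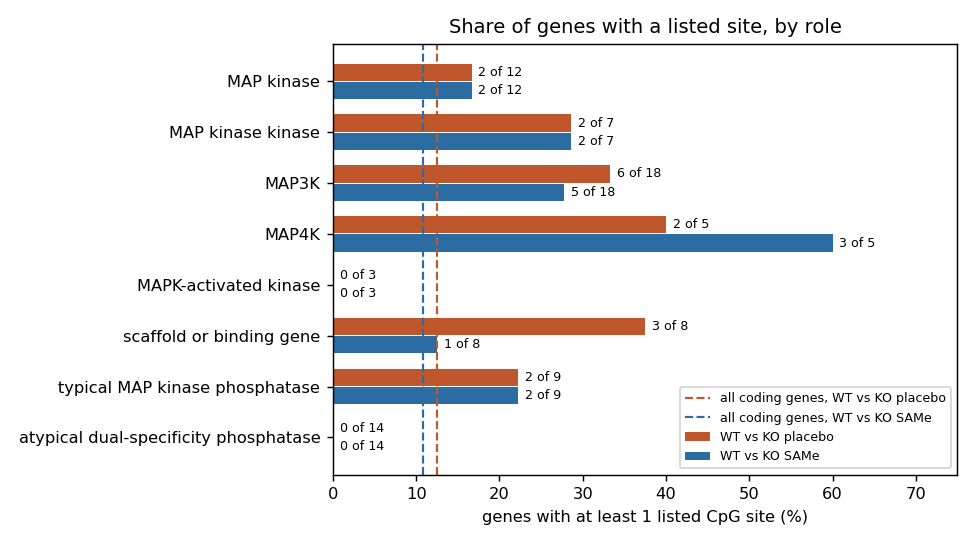
Percentage of genes of each role with at least 1 listed CpG site in WT vs KO placebo (orange) and WT vs KO SAMe (blue), with the numbers of genes beside the bars; the dashed lines are the shares of all coding genes, 12.5% and 10.8%. The bars of MAP kinases, MAP kinase kinases, MAP3K, MAP4K, scaffold or binding genes and typical phosphatases pass the line of their comparison, while the MAPK-activated kinase and atypical phosphatase bars stand at 0.

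At the bottom of the cascade, Mapk3 was less methylated in KO liver. It encodes the MAP kinase ERK1 and spans only 6.2 kb (chromosome 7, 126759626 to 126765816). Its 2 sites lay within 48 bp, at positions 126763304 and 126763351, and stood at −26.1 and −21.1 points in WT vs KO placebo (q = 2.26e-09 and 2.58e-06) in the authors' deposited table. In WT vs KO SAMe the authors' deposited table gave −29.8 and −24.2 for the same sites. The genes of the p38 kinases, Mapk11 to Mapk14, and of the JNK kinases, Mapk8, Mapk9 and Mapk10, held no listed site, although Mapk10 is the longest gene of the families.

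Among the MAP kinase kinases, Map2k6 and Map2k5 held 1 site each. Map2k6, which activates the p38 kinases, had the lowest value of the families against KO SAMe. Its site at chromosome 11 position 110427390, 28.3 kb into a gene of 126.4 kb, stood at −38.9 points with placebo and −42.9 with SAMe in the authors' deposited tables, with q listed as 0 in both. Only 10.6% and 7.45% of the sites of those tables were as low or lower. Map2k5, which activates ERK5, had its site near the 3′ end (chromosome 9, position 63168064), at −27.7 with placebo and −21.1 with SAMe in the authors' deposited tables. Map2k1 and Map2k2, which act directly above ERK, and Map2k3, Map2k4 and Map2k7 held no listed site.

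The MAP3K genes held the most sites. Map3k20 encodes ZAK, a kinase that senses stalled and colliding ribosomes. It had 3 sites on chromosome 2, and only in WT vs KO placebo: −22.9 at position 72328226, −40.3 at 72398379 and −29.8 at 72398407 in the authors' deposited table, the last with q = 5.9e-07. The first lay 42.6 kb into the gene and the others, within 29 bp, at 112.7 and 112.8 kb. None of the 3 was listed in WT vs KO SAMe or between the KO groups, so its level under SAMe is unknown.

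Map3k14 and Map3k1 showed short runs of lower sites. Map3k14 encodes NIK, the kinase that starts noncanonical NF-κB signalling. Its 2 sites within 24 bp (chromosome 11, 103258870 and 103258893) stood at −30.9 and −30.9 with placebo and at −29.96 and −32.2 with SAMe in the authors' deposited tables. These neighbours thus gave nearly the same loss in both KO groups. Map3k1, an upstream activator of JNK, had 3 positions within 72 bp of chromosome 13. The authors' deposited tables list 111803479 (−20.1) and 111803498 (−25.2) against KO placebo and 111803427 (−25.8, q = 4.72e-04) against KO SAMe, so the short run was lower in both KO groups but at different cytosines.

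Of the other MAP3K genes, Map3k13, Map3k12 and Map3k4 held sites, from −20.02 to −31.5. Map3k13 and Map3k12 encode related leucine zipper kinases, the latter best known from axon injury. Map3k13 had −24.8 with placebo and −31.5 with SAMe at chromosome 16 position 21856332, and −25.4 with SAMe alone at 21910399, in the authors' deposited tables. Map3k12 had −21.1 and −23.9 at chromosome 15 position 102505370 in the authors' deposited tables. Map3k4, which is activated by GADD45 proteins, had −20.02 with placebo and −21.4 with SAMe at chromosome 17 position 12300811 and −22.4 with SAMe at 12307840 in the authors' deposited tables. Its placebo value is among the smallest that could be listed, since 99.1% of that table's sites were as low or lower. Map3k5, Map3k7 and Map3k8, which encode the stress and cytokine kinases ASK1, TAK1 and TPL2, had no listed site.

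Of the MAP4K genes, Map4k4, Map4k5 and Map4k3 held sites and the shorter Map4k1 and Map4k2 did not. Map4k4, an upstream activator of JNK, stood at −21.0 with placebo and −25.0 with SAMe at chromosome 1 position 39941045 in the authors' deposited tables. Map4k5 had 1 site per comparison and at different places of chromosome 12, −21.2 at 69861314 with placebo (q = 0.00135) and −22.3 at 69853482 with SAMe in the authors' deposited tables. Map4k3, which takes part in amino acid sensing by mTORC1, was listed with SAMe only, at −21.0 (chromosome 17, position 80699139) in the authors' deposited table. Apart from that of Map4k4 with SAMe, these values lay from −21.0 to −22.3 points.

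Among the scaffold and binding genes, 3 of 8 had a site with placebo (37.5%) and 1 with SAMe (12.5%). The shares of all coding genes were 12.5% and 10.8%. Mapk8ip3 encodes JIP3, a scaffold of the JNK branch that also links cargo to motor proteins. Its 2 sites on chromosome 17 stood at −34.5 (position 24935442) and −23.6 (24935484) with placebo in the authors' deposited table, and lay nearest to the gene's 5′ end of all sites with a known strand, at 1.53 and 1.49 kb. Mapkbp1, which encodes a JNK-binding protein, had −29.4 at chromosome 2 position 119993308 with placebo in the authors' deposited table. Neither gene was listed against KO SAMe. Mapkap1 encodes SIN1, a subunit of mTORC2, the kinase complex that phosphorylates AKT in insulin signalling. It stood at −22.5 with placebo and −24.3 with SAMe at chromosome 2 position 34432125, and at −20.9 with SAMe alone at 34432318, in the authors' deposited tables.

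Dusp16 carried the most positions of the families. It encodes MKP-7, a phosphatase of JNK and p38, and spans 91.6 kb on the minus strand of chromosome 6 (134715468 to 134807063). Its 5 positions fell in 2 places: 3 near the 3′ end of the gene and 2 upstream of the internal promoter printed above. Before the internal start site, outside its promoter window, positions 134793590 and 134793617 stood at −34.2 and −31.7 with placebo and at −27.3 and −28.6 with SAMe in the authors' deposited tables, with q listed as 0 for all 4 values. Both positions also lie in the noncoding gene 1700055D16Rik. Near the 3′ end, position 134718836 stood at −38.1 and −36.0, and 134718686 at −22.9 and −22.1, with placebo and SAMe in the authors' deposited tables. Position 134718830, close to the first of these, was listed with placebo only, at −23.1 (q = 1.46e-06) in the authors' deposited table. All 4 Dusp16 sites listed in both tables were nearer to WT with SAMe, by 0.77 to 6.91 points.

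The other typical phosphatases with a site act on ERK. Dusp5, a nuclear ERK phosphatase, stood at −20.5 with placebo at chromosome 19 position 53540876 in the authors' deposited table. Dusp7, a cytoplasmic one, stood at −20.6 with SAMe at chromosome 9 position 106372624 in the authors' deposited table. Each was listed in that comparison alone and near the threshold. Dusp6, the main feedback phosphatase of ERK in many tissues, and Dusp2, Dusp4, Dusp8, Dusp9 and Dusp10 had no listed site, nor had any atypical phosphatase other than Dusp3.

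**Figure D3:**
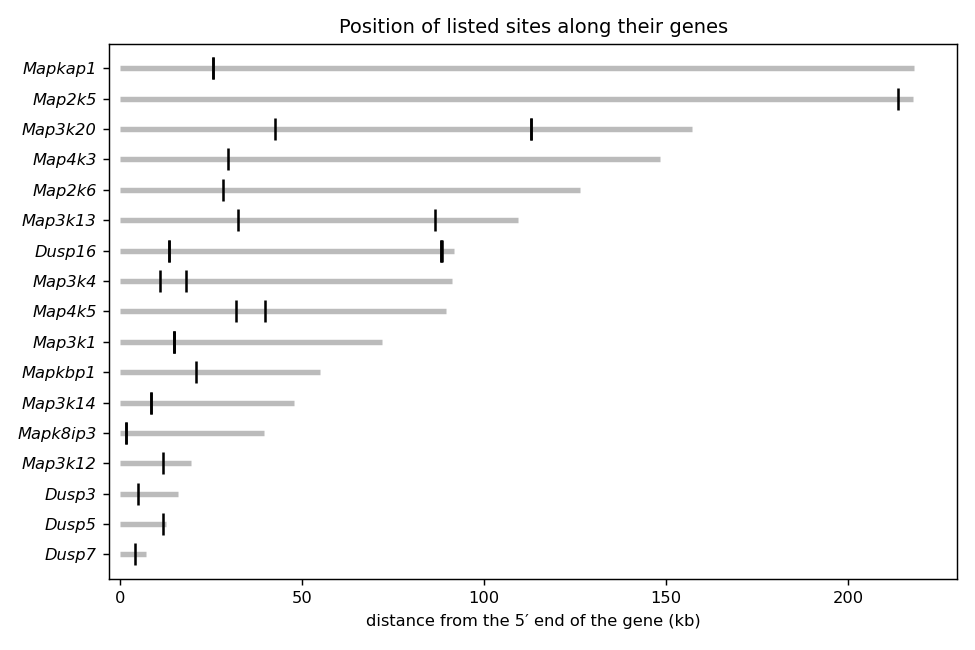
Distance of each listed CpG position from the 5′ end of its gene (horizontal axis, kb), for the 17 genes with a strand in the promoter table; grey lines span each gene and black ticks are the 31 positions, close ones merging. Ticks run from 1.49 kb in Mapk8ip3 to 213.6 kb in Map2k5, and 21 of 31 lie in the first 50% of their gene. Close neighbours are counted separately, and the same share over all coding genes was not computed.

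Positions were placed on 12 chromosomes. When those within 1 kb were joined, the 35 positions formed 25 runs, of which 17 held a single position. The 8 longer runs held 2 or 3 positions each and spanned from 24 bp in Map3k14 to 194 bp in Mapkap1. Sites this close can share sequenced fragments, so they are not separate observations of their gene. Of the 35 positions, 3 lay in a noncoding gene as well, 1 lay within 2 kb of a pseudogene, and 0 lay in or within 2 kb of a second coding gene.

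At 16 positions of 11 genes a difference from WT was listed for both KO groups. They made up 59.3% of the families' placebo sites and 69.6% of their SAMe sites, close to the 55.2% and 68.9% over all sites of the tables. The 2 values can be set side by side there, and their difference is the SAMe minus placebo difference by addition. This ran from −6.67 points in Map3k13 to 6.91 in Dusp16, with a median of −1.59, and was within 5 points at 12 of the 16 positions. SAMe-treated KO was farther from WT at 10 positions and nearer at 6. Over all 3707 sites listed in both tables, the SAMe value was the lower one at 54.2%, and the median was −0.46. The 6 were the 4 of Dusp16, the one of Map2k5 (6.63) and 1 of the pair in Map3k14 (0.98). The pair of sites in Mapk3 was farther from WT with SAMe, by −3.71 and −3.09 points. None of the 16 was listed between the KO groups, and without values per animal no spread can be set against these differences. Both comparisons use the same 8 WT animals, and only sites past the thresholds in both enter.

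**Figure D4:**
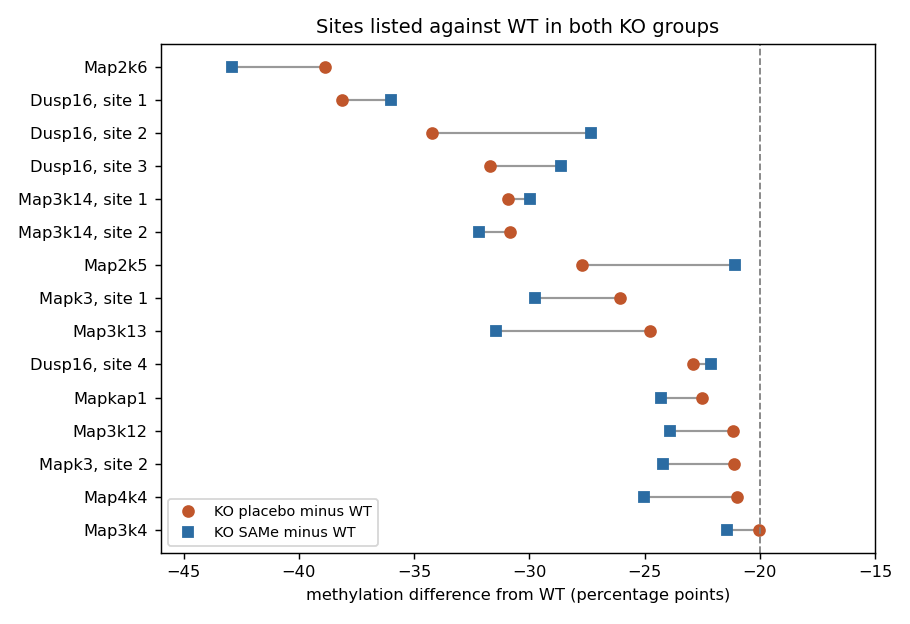
Methylation difference from WT (horizontal axis, percentage points) of placebo-treated KO (circles) and SAMe-treated KO (squares) at 15 of the 16 positions listed in both tables, 1 line per position, ordered by the placebo value. The dashed line marks −20 points; squares lie left of circles at 9 positions and right of them at 6, with gaps of at most 6.91 points.

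The last comparison set SAMe-treated against placebo-treated KO liver. Of the 76 genes 1 held a listed site (1.32%), where 0.658% of all coding genes did. This was Dusp3, which encodes VHR, a small atypical phosphatase that acts on ERK and JNK. Its site at chromosome 11 position 101982008, 5.0 kb into the gene, was lower with SAMe by −22.8 points (q = 0.00296) in the authors' deposited table. It would not pass a limit of 25 points or of q under 0.001. The direction is the less common one there, since 69 of the 230 sites of that table were lower with SAMe and 161 higher. The site was listed in neither comparison with WT, so how far each KO group stood from WT at Dusp3 is unknown.

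None of the families' listed sites lay in the 2 kb beside a gene, so no value stood just inside the 2 kb limit. Within the genes, the nearest site to a gene end was that of Dusp5, 0.933 kb within its 3′ end. Just outside the 2 kb limit, Map3k11 had a site 2.13 kb away at −30.2 with placebo in the authors' deposited table. That site lay in or within 2 kb of another coding gene, Kcnk7. Map3k3, which acts above ERK5, had a site 2.26 kb from its end (chromosome 11, position 106158914). It stood at −32.8 with placebo and −32.2 with SAMe in the authors' deposited tables. A neighbouring site 2.27 kb from the end, at position 106158930, stood at −54.8 with placebo and −58.4 with SAMe in the authors' deposited tables. The values at 106158930 are lower than any of the families' own sites, and both positions also belong to Limd2 and Gm10840.

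Outside these families, 130 other genes taken as part of MAP kinase signalling were sorted into 5 lists, of which 129 matched the gene table. A listed site was found in 22 of them (17.1%) with placebo against WT, in 20 (15.5%) with SAMe against WT and in 1 between the KO groups. The shares of all coding genes in these comparisons were 12.5%, 10.8% and 0.658%, and no test of the differences was made. All 57, 40 and 1 of their sites were lower. Receptors and adaptors had a site in 10 of 35 genes with placebo and 9 with SAMe, against 12.5% and 10.8% of all coding genes. The insulin receptor substrate gene Irs1 had the lowest value of that list in both WT comparisons, −46.6 and −44.7 in the authors' deposited tables. The insulin receptor gene Insr stood at −44.2 and the fibroblast growth factor receptor gene Fgfr1 at −43.1 with placebo in the authors' deposited table. With SAMe, Tab1, the partner of TAK1, stood at −38.3 and Fgfr1 at −37.9 in the authors' deposited table.

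Ras, Raf and their regulators had a site in 3 of 30 genes with placebo and 4 with SAMe, close to the background. Rasgrp2, a Rap and Ras exchange factor, stood at −36.3 with placebo and, at another site, −46.5 with SAMe by the lowest site of each of the authors' deposited tables. Spred2, an inhibitor of Raf activation, had 1 site per comparison and at different places of chromosome 11, −21.3 at 19940664 with placebo and −25.1 at 19979518 with SAMe in the authors' deposited tables. Spry4, another inhibitor of the ERK branch, was the 1 listed gene with a site between the KO groups. At chromosome 18 position 38591433 it stood at −35.1 with SAMe against WT and at −24.9 with SAMe against placebo in the authors' deposited tables. Its value with placebo against WT, −21.7 in the authors' deposited table, was at another site (38597409).

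Kinases listed as related to the MAP3K and MAP4K genes had a site in 3 of 13 genes (23.1%) in each WT comparison. Of all coding genes, 12.5% held one with placebo and 10.8% with SAMe. That list includes Tlk2, a tousled-like kinase that is not a close relative of these families. Tlk2 stood at −41.3 with placebo, Taok3, a stress kinase above p38, at −37.0 with placebo and −27.4 with SAMe, and Mink1 at −27.0 and −24.7, by the lowest site in each of the authors' deposited tables, which differed between the tables for Taok3 and Mink1. Pak2 was listed with SAMe, at −26.9 in the authors' deposited table. Substrates and transcription factors downstream had 4 of 34 genes with placebo (11.8%) and 3 with SAMe (8.82%), near the shares of all coding genes. Rps6ka4, which encodes the kinase MSK2, had 9 sites with placebo, the lowest at −34.8, and 3 with SAMe, the lowest, at another position, at −32.3, in the authors' deposited tables. The p38 target gene Mef2d stood at −28.5 and −29.9, Elk3 at −21.1 with placebo and Fosl1 at −20.4 with SAMe in the authors' deposited tables. The immediate early genes Fos, Jun, Egr1 and Myc had no listed site. Other phosphatases and stress regulators had 2 of 17 genes with placebo (11.8%) and 1 with SAMe (5.88%), not above the shares of all coding genes. These were the slingshot phosphatase genes Ssh1 (−33.4 and −45.5) and Ssh3 (−30.7 with placebo) in the authors' deposited tables. Their place in this list is no evidence that they act on MAP kinases.

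The liver label could not be checked against marker levels, since no expression was measured. Of 33 marker genes of hepatocytes and of immune, stellate, endothelial and biliary cells, 9 had a listed site with placebo (27.3%) and 8 with SAMe (24.2%) against WT, all lower, beside 12.5% and 10.8% of all coding genes and 22.4% and 19.7% of the families. In the WT vs KO placebo table these were 1 of 7 hepatocyte genes (14.3%) and 8 of 26 genes of the other cell types (30.8%). In WT vs KO SAMe they were 1 of 7 (14.3%) and 7 of 26 (26.9%). These shares do not take gene length into account, and no test of the difference was made. In DNA from whole liver, a different mix of cells and a different methylation within a cell type cannot be told apart, and the part of cell mix in the values above was not tested.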

How the data were processed

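Bisulfite reads of liver DNA cut with MspI and TaqαI were processed by the authors. Per the submitters' processing notes, the tools were CASAVA 1.8.2, Trim Galore, Bismark and methylKit and the build was mm10; no order or settings are stated. The deposited values are 3 tables of group comparisons, each giving per CpG site a p-value, a q-value and a methylation difference in percentage points; the sources used here do not say which test or coverage filter was applied, and the depth per sample is unknown. No new test was run. With Python 3.11.15, pandas 2.3.3 and numpy 2.4.6, listed sites were assigned to RefSeq coding genes with a 2 kb margin, counted by gene and role, and set beside the same counts over all 21896 coding genes. The assignment was tested on simulated data: 200 of 200 planted sites were placed as made. Strand came from the RefSeq promoter table. Some of the genes counted are not reported here by name. The genes, roles and lists were chosen with earlier results of these data known. Genes were named when they held a listed site; from each list of further pathway genes, those with the 3 largest differences per WT comparison and any listed between the KO groups were named, and genes named as holding no site were picked afterwards. Alternatives changed the margin, the difference, the q-value, the set of genes and the joining distance.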

Additional observations from a re-analysis of the deposited data

How the results depend on the processing

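Requiring a difference of at least 25 percentage points left 13 sites in 9 genes in WT vs KO placebo, 12 sites in 8 genes in WT vs KO SAMe and 7 positions listed in both; 0 sites and 0 genes then remained between the KO groups. At that limit the families held a site in 11.8% and 10.5% of their genes, and all coding genes in 7.83% and 7.13%. A q-value under 0.001 also left 0 sites and 0 genes between the KO groups, so the Dusp3 call does not pass either stricter limit. With a margin of 10 kb the number of genes with a site became 24 in WT vs KO SAMe, or 31.6% of the families and 15.1% of coding genes. The other 32 recomputed counts stayed within 1.5 times their reported value, including those for sites inside genes only, for kinases and phosphatases only, for genes of 50 kb or longer (added after seeing the data) and for sites joined within 200 bp. Genes of 50 kb or longer are only 26 of the 76, so their count could not rise and says nothing on stability. The share with a site rose there, from 22.4% to 46.2% with placebo and from 19.7% to 42.3% with SAMe. For the families, the setting of sites inside genes only could not change a count, since all 35 positions lay inside. Nor could joining within 200 bp, since no run spanned more than 194 bp. Every recomputed median stayed negative. The stricter limits and smaller gene sets could not have given another sign, since no listed site of the families was higher. No paired analysis was possible because the animals carry individual codes and the tables hold no value per animal; for the same reason no animal could be left out. Coverage being unknown, a missing site limits every count of genes without one.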

Other observations

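Farther from the genes, 15 listed positions lay between 2 and 10 kb from a member of the families, beside 12 genes, of which 11 had no site within 2 kb. With a margin of 10 kb, 31.6% of the families' genes held a site in each WT comparison. The shares of all coding genes were then 17.7% with placebo and 15.1% with SAMe. All 15 positions were lower than WT, as were 99.4% of all sites listed with placebo and 99.0% with SAMe. Of the 15 positions, 11 lay in or within 2 kb of another coding gene. A site 3.57 kb from Mapk8ip1, the gene of the JNK scaffold JIP1, stood at −46.2 percentage points with placebo and −46.5 with SAMe in the authors' deposited tables, and lay in or near the peroxisome biogenesis gene Pex16. Mapkapk2, which encodes the p38-activated kinase MK2, had a site 6.66 kb away at −25.4 with placebo and −22.6 with SAMe in the authors' deposited tables, with no coding gene within 2 kb of it. Dusp11, an RNA phosphatase, had one 7.65 kb away at −27.6 with SAMe alone in the authors' deposited table.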
